A study of Mus musculus with 12 samples.

Results

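The unfolded protein response and the integrated stress response are described here through 37 genes, chosen by name, in mouse bone marrow cells with and without the FoxO transcription factors. The list was made with earlier results of these data known, so member shares set against all genes are not those of an independent list. All probe sets that the array's annotation pairs with a member alone were used: 36 of the 37 genes have at least 1, and these 36 were tested among 13732 genes. The other, Eif2s1, which encodes eIF2 alpha, was not analysed here. The members have 85 of the 45101 probe sets on the array. Of these 82 passed the filter on low values, which kept a probe set above the 40th percentile on at least 3 of the 12 arrays, and each of the 36 genes is read from its brightest one.

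Expression was measured on 12 Affymetrix arrays in 4 groups of 3. Arrays 1, 2 and 3 hold wild-type LSK cells, arrays 4, 5 and 6 FoxO-deficient LSK cells, arrays 7, 8 and 9 wild-type myeloid progenitors, and arrays 10, 11 and 12 FoxO-deficient myeloid progenitors. The LSK fraction is the lineage-negative, Sca-1-positive, Kit-positive part of the marrow that holds the hematopoietic stem cells, and myeloid progenitors are the more restricted cells that give rise to granulocytes, monocytes, red cells and platelets. Every mouse carried floxed alleles of Foxo1, Foxo3 and Foxo4. The deficient groups alone carried Mx-Cre, a recombinase gene under the interferon-inducible Mx promoter, so that an effect of Cre cannot be told apart from one of FoxO loss. Cells came from pooled mice, the animals' ages are not given in the labels, and it is not said whether each array of a group had a pool of its own. The p-values therefore measure the spread between arrays alone, which may be technical. The study asked how loss of the 3 FoxO genes affects genes that handle reactive oxygen species.

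As background, the endoplasmic reticulum (ER) folds secreted and membrane proteins, and 3 sensors in its membrane report unfolded protein. IRE1 (gene Ern1) splices the messenger of the transcription factor Xbp1, ATF6 is cut to release a transcription factor, and PERK (Eif2ak3) phosphorylates eIF2 alpha. Phosphorylated eIF2 alpha slows most translation while favouring that of Atf4, whose product switches on Ddit3 (CHOP), Trib3, Asns and Chac1, and Ppp1r15a (GADD34) then brings a phosphatase back to eIF2 alpha. Other kinases reach the same point from amino acid shortage, heme shortage or viral RNA, which is why that arm is called the integrated stress response. An array reads messenger levels only, not splicing of Xbp1, cleavage of ATF6 or phosphorylation of eIF2 alpha. In these bulk samples, fewer cells of a type and less RNA per cell cannot be told apart.

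Values are quantile-normalized intensities in the arrays' arbitrary units, on which different probe sets cannot be compared with each other. The level of a group is the mean of its 3 arrays' log2 values turned back to intensity, and a log2 change is the difference of group means of log2(intensity + 0.6), given ± SE. The test was limma over all 12 arrays, with p-values adjusted by Benjamini-Hochberg over the 13732 genes, and calls were made at an adjusted p under 0.05. The background limit of an array, between 5.14 and 13, is the brightest of 27 probe sets for bacterial control transcripts.

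Per array, the deposited intensities had means of 118.9 to 190.2 and medians of 8 to 13.5. In RNA quality, array 2 of the wild-type LSK group stood apart, with a 3′ over 5′ ratio of 344 for Gapdh and 145 for Actb against 1.77 to 2.37 and 2.74 to 3.36 on the other 11 arrays. Among the 36 members this array was the highest of its group for 15 and the lowest for 18, and for 14 it lay over 1 log2 unit from the mean of arrays 1 and 3. The median SD of the members' log2 values was accordingly 0.49 in wild-type LSK cells against 0.15, 0.12 and 0.10 in the other groups (deficient LSK, wild-type and deficient myeloid progenitors, n = 3 each). Results are given with that array and, where it matters, without it. Of the targeted genes, Foxo4 fell from 393 to 85.8 in LSK cells and from 329.8 to 59.9 in myeloid progenitors (limma, adjusted p = 0.00162 and 1.14e-04), while Foxo1 and Foxo3 were not called. The Foxo1 means in LSK cells were 104 (wild-type) and 27.2 (deficient), and those in myeloid progenitors 23.4 and 12.5. The Foxo3 means were higher in the deficient groups, 2828 against 2421 in LSK cells and 2414 against 1860 in myeloid progenitors, without passing the test; whether their probe sets lie in the deleted parts was not checked. Summed over 10 tested LSK and stem cell markers, the level lay between 6544 and 7305 on the LSK arrays and between 1545 and 1926 on the myeloid progenitor arrays, and over 11 myeloid progenitor markers between 3542 and 5740 and between 16160 and 19810, so the markers of both sorted populations were present where the labels place them.

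In FoxO-deficient myeloid progenitors the stress genes Ppp1r15a and Ddit3 and the co-chaperone gene Dnajb9 were lower than in wild-type myeloid progenitors, and no member was called higher. Ppp1r15a went from 102 to 9.18, Ddit3 from 88.8 to 39.7 and Dnajb9 from 448 to 282. These are 3 lower calls (8.33%) and 0 higher calls among 36 members, against 1.09% of all genes called lower and 0.757% called higher in this comparison (limma, adjusted p under 0.05). Over all 36 members more values lay on the higher side without passing the test: all 3 deficient arrays were above all 3 wild-type arrays for 18 members (50%) and below them for 6 (16.7%), while this held for 18.2% and 12.6% of all genes. The median log2 change of the members was 0.22, beside 0.04 for all genes tested, and 29 of the 36 values were above 0 (24 with arrays scaled to their 75th percentile in place of quantile normalization). At an unadjusted p under 0.05, 6 members were higher and 4 lower, and the share of all genes at that threshold was not counted.

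**Figure D1:**
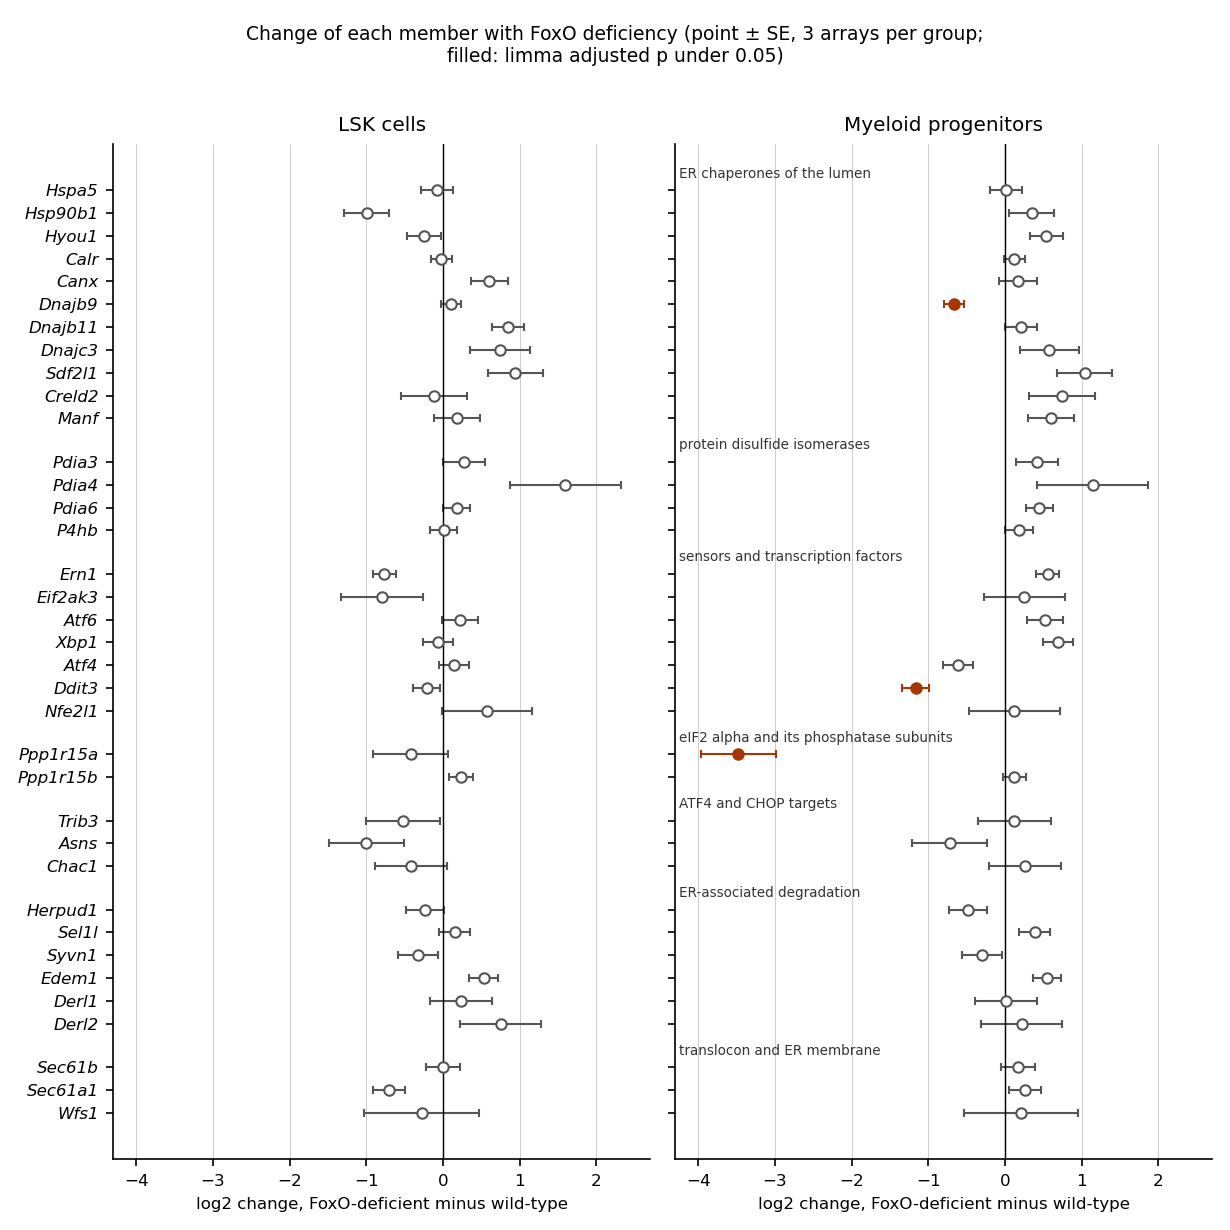
Log2 change of the 36 tested members with FoxO deficiency in LSK cells (left) and myeloid progenitors (right), ordered by role, as point ± SE from the limma fit with 3 arrays per group. Filled points are the members called at an adjusted p under 0.05: none in LSK cells, and Ppp1r15a (-3.48), Ddit3 (-1.16) and Dnajb9 (-0.66) in myeloid progenitors.

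Ppp1r15a, the inducible subunit that directs protein phosphatase 1 to eIF2 alpha, had the largest change of all members. It read 109.6, 88.3 and 111 on the wild-type myeloid progenitor arrays and 12.96, 3.41 and 17.5 on the deficient ones. The groups lay far apart, and array 11 was below the background limit while arrays 10 and 12 were above it. The log2 change was -3.48 ± 0.49 (adjusted p = 0.00627). Its size rests on values near the background limit: it was -2.75 without array 11 and -2.18 with an offset of 16, and with array 11 set to its limit the level was at least 8.06-fold lower. The change was called in all 19 alternatives run, those without 1 array included (adjusted p between 5.12e-05 and 0.0480). In LSK cells the same probe set read 179, 241 and 214 in wild-type and 161, 152 and 159 in deficient cells, a log2 change of -0.42 ± 0.49 that did not pass (adjusted p = 0.731). The difference between the effects in the 2 cell types, -3.06 ± 0.69, did not pass either (adjusted p = 0.0942), though it did without array 11 (-2.33, adjusted p = 0.00830) and with an offset of 16 added before the log (-1.79, adjusted p = 0.00717). Ppp1r15b, the constitutive counterpart, read 1745 and 1901 in wild-type and deficient myeloid progenitors and 1319 and 1552 in LSK cells, and was not called.

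Ddit3 encodes CHOP, the transcription factor best known for promoting death under lasting ER stress. Its wild-type myeloid progenitor arrays read 94.1, 97.2 and 76.7 and its deficient ones 46.7, 36.3 and 36.9. The deficient arrays were all lower, and the log2 change was -1.16 ± 0.18 (adjusted p = 0.00921), which of 19 alternatives missed the threshold in 1, without wild-type myeloid progenitor array 7 (adjusted p = 0.0501). The other Ddit3 probe set moved the same way, from 80.7 to 30.5 (-1.41, adjusted p = 0.0285 over all probe sets). In LSK cells the probe sets differed in sign, at 82.6 and 71.3 for the brighter and 58.0 and 96.9 for the dimmer, and neither was called. The dimmer one was called for the difference between the cell types (-2.15, adjusted p = 0.0336 over all probe sets), and the brighter one was not (-0.95 ± 0.25, adjusted p = 0.152).

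Dnajb9 (ERdj4), a J-domain partner of BiP that also holds IRE1 in check, read 424, 462 and 458 in wild-type and 298, 269 and 282 in deficient myeloid progenitors. All deficient arrays were lower, by a log2 change of -0.66 ± 0.14 (adjusted p = 0.0415). This call is near the threshold: it was lost in 13 of 19 alternatives, with an adjusted p between 0.00211 and 0.157, and in the fit over all probe sets (adjusted p = 0.0735). Its LSK arrays read 547, 645 and 608 in wild-type and 612, 634 and 687 in deficient cells, which overlapped (0.10 ± 0.14, adjusted p = 0.756).

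The promoters of 4 members are printed as the 250 bases before the RefSeq start site (GRCm38.p6, read 5′ to 3′ along the gene): the 3 called lower in deficient myeloid progenitors, and Pdia6, called higher in myeloid progenitors than in LSK cells in both genotypes. Capitals mark matches to 5 motifs searched on both strands: the ER stress element (ERSE, CCAAT and CCACG separated by 9 bases, so that each match also holds a CCACG match), CCACG alone, the unfolded protein response element TGACGTGG, an ATF4 element TGATGNAAT and the cyclic AMP response element TGACGTCA (CRE). Their positions are chr7:45526269-45526518 on the minus strand, chr10:127290543-127290792 on the plus strand, chr12:44210069-44210318 on the minus strand and chr12:17266339-17266588 on the plus strand.
Ppp1r15a: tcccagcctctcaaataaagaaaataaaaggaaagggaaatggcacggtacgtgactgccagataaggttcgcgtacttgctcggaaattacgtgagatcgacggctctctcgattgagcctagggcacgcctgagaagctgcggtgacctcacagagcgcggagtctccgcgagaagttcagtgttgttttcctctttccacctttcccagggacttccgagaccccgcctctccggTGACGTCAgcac
Ddit3: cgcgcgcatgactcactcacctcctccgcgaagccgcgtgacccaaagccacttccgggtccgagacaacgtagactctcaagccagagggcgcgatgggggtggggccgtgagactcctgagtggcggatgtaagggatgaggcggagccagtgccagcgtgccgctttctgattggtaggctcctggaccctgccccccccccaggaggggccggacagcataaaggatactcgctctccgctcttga
Dnajb9: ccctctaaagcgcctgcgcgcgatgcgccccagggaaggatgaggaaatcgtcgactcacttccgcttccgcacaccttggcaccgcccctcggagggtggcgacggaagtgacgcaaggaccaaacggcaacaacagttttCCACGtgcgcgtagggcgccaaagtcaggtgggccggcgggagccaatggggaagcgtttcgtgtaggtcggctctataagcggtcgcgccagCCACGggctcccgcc
Pdia6: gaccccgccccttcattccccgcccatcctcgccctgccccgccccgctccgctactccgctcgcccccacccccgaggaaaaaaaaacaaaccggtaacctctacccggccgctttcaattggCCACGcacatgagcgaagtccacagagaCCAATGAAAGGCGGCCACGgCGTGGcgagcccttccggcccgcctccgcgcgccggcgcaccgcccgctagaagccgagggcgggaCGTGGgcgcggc
Ppp1r15a holds a CRE match from -12 to -5 counted from the start site, which 1.79% of all promoter windows and no other member have. Ddit3 has no match to any of the 5 motifs in its window, Dnajb9 has CCACG from -108 and from -15, and Pdia6 has an ERSE match from -98 to -80.

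Over windows of 300 bases, from 250 before to 50 after the start, 31 of the 37 members had an entry among 32817 windows in all. The ERSE was found in 8 members (25.8%), Hspa5, Hsp90b1, Calr, Canx, Dnajc3, Creld2, Pdia6 and Syvn1, and in 0.119% of all windows. CCACG alone was in 23 members (74.2%) and 32.8% of windows. The response element TGACGTGG was found in 1 member, Nfe2l1 (3.23%), and 0.676% of windows, and the ATF4 element in 0 members and 0.966% of windows. The ATF4 pattern TGATGNAAT fixes the last base. Sites with another last base, or more than 250 bases before the start, were not searched, so the 0 says nothing about them. These are matches of letters, not bound sites; some genes have more than 1 window, and a gene was counted if any of them matched.

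Atf4, whose product switches on Ddit3, Trib3, Asns and Chac1, read 893, 933 and 1019 in wild-type and 645, 609.7 and 602 in deficient myeloid progenitors. The groups did not overlap, but the log2 change of -0.61 ± 0.20 did not pass (adjusted p = 0.206; 0.00374 without wild-type LSK array 2). In LSK cells Atf4 read 1341, 813 and 1362 and then 1253, 1278 and 1248, with array 2 the one far from the rest (0.14 ± 0.20, adjusted p = 0.774). Of its targets on the member list, Asns (asparagine synthetase) read 1143, 1141 and 1031 in wild-type and 691, 692 and 626 in deficient myeloid progenitors (-0.72 ± 0.49, adjusted p = 0.640), and its other probe set read 697.5 and 469.8 as group levels. The fit takes 1 spread per gene over all groups, and the wild-type LSK arrays read 275, 1162 and 232; without array 2 the change was called (adjusted p = 0.00724). Trib3, a pseudokinase that binds ATF4 and CHOP, read 9.93 and 10.8 in the myeloid progenitor groups, and Chac1, which degrades glutathione, 13.8 and 16.5, both low and with overlapping arrays.

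**Figure D2:**
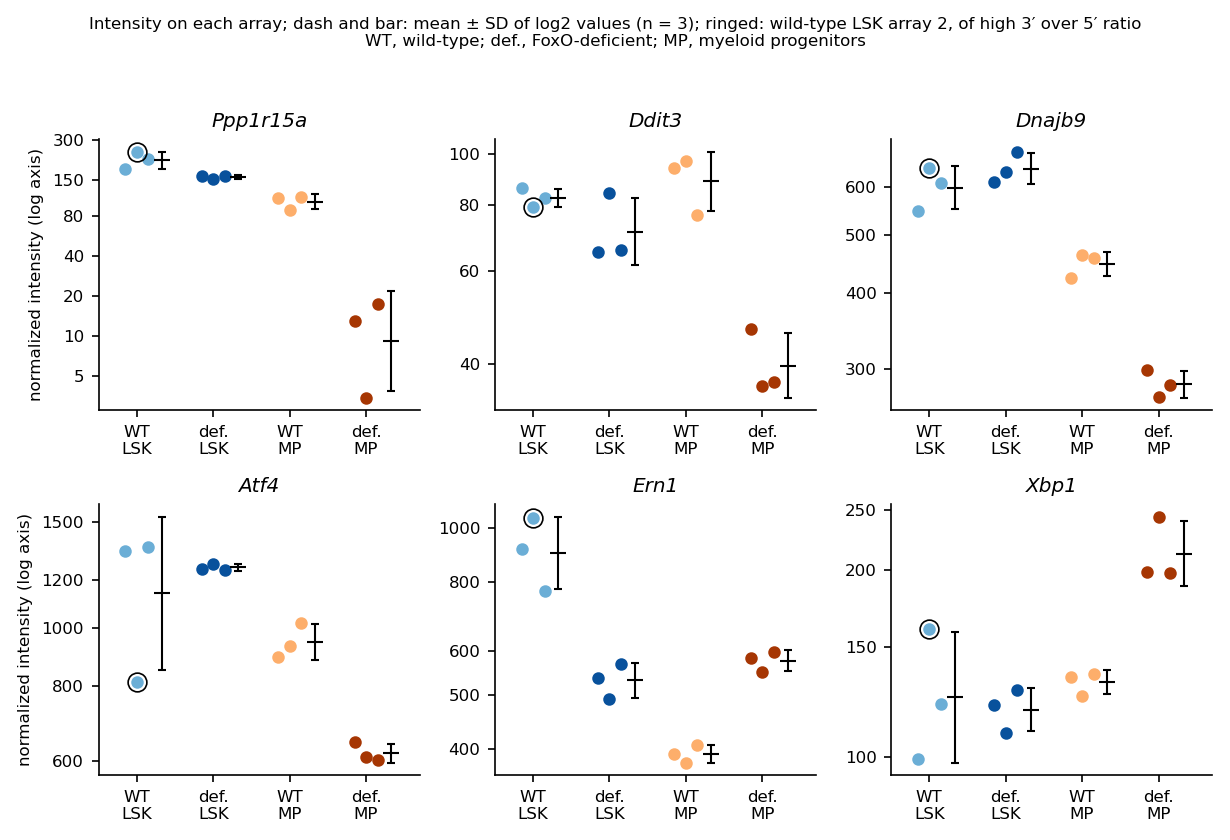
Normalized intensity (log axis) of 6 members on each array of the 4 groups, with the mean ± SD of the log2 values (n = 3) beside each group and wild-type LSK array 2 ringed. The deficient myeloid progenitor arrays sit below all others for Ppp1r15a (3.41 to 17.5), Ddit3 (36.3 to 46.7), Dnajb9 (269 to 298) and Atf4 (602 to 645), and above all others for Xbp1 (198 to 244), while the Ern1 groups cross between cell types.

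Among the sensors, Xbp1 read 134.5, 125 and 136 in wild-type and 199, 244 and 198 in deficient myeloid progenitors. The deficient arrays were all higher, by 0.69 ± 0.19 (adjusted p = 0.129; 0.0137 without wild-type LSK array 2). All 4 Xbp1 probe sets had a log2 change between 0.69 and 0.79 in this comparison, and in LSK cells the brightest read 125 and 119 as group levels. Atf6 read 172, 172 and 166 in wild-type and 235, 239 and 259.9 in deficient myeloid progenitors, again without overlap (0.52 ± 0.24, adjusted p = 0.387; 0.0382 without array 2). Ern1, which stood at 391 and 576, is described with LSK cells. Eif2ak3, which encodes PERK, read 61.4 and 73.2 with overlapping arrays, and Nfe2l1, an ER-anchored transcription factor of proteasome genes, 365.6 and 398.

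Of the 11 lumenal chaperone genes, 10 had a value above 0 in deficient myeloid progenitors, where 7385 of all 13732 genes did. All 3 deficient arrays lay above the wild-type ones for 8 of the 11 (72.7%), against 18.2% of all genes. Among the 11, Dnajb9 had the 1 value below 0. Sdf2l1, part of the BiP complex, showed the widest gap, with wild-type arrays at 177, 134 and 165 and deficient arrays at 326, 320.2 and 327. That change of 1.04 ± 0.36 did not pass (adjusted p = 0.240; 0.00648 without array 2). Hyou1, the nucleotide exchange factor of BiP, read 174, 192 and 177 and then 261, 268 and 257 (0.54 ± 0.22, adjusted p = 0.323; 0.0371 without array 2). Manf, a secreted protein that BiP retains, read 1102, 1035 and 866 and then 1425, 1585 and 1537 (0.60 ± 0.30, adjusted p = 0.450; 0.0345 without array 2). BiP itself (Hspa5), the central chaperone of the ER, read 2221 and 2241 in the myeloid progenitor groups and 2307 and 2188 in the LSK groups, with 95% intervals of -0.45 to 0.47 and -0.54 to 0.38 for the log2 changes with FoxO deficiency.

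For the other chaperone genes the gap between the myeloid progenitor groups was smaller or the spread wider. Hsp90b1 (GRP94) read 819, 743 and 580.4 in wild-type and 831, 915 and 958 in deficient cells (0.35 ± 0.29, adjusted p = 0.743). Canx, the membrane lectin calnexin, read 2979, 3061 and 3088 and then 3489, 3224 and 3566 (0.17 ± 0.25, adjusted p = 0.892), and Dnajb11, a co-chaperone of BiP, read 554, 525 and 594 and then 669, 589 and 679 (0.21 ± 0.21, adjusted p = 0.806). Calr, Dnajc3 and Creld2 had log2 changes of 0.12, 0.58 and 0.74 and were not called. Of these 6 genes, Dnajb11 had overlapping arrays.

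All 4 disulfide isomerase genes had their deficient myeloid progenitor arrays above the wild-type ones, which held for 18.2% of all genes. None of the 4 was called. Pdia4 had the largest value, 1.14 ± 0.73, with wild-type arrays at 22.4, 28.0 and 25.6 and deficient ones at 48.0, 55.0 and 65.2 (adjusted p = 0.604). Pdia6 read 167, 122 and 146 and then 207, 184 and 197 (0.45 ± 0.18, adjusted p = 0.317), P4hb 2926, 2976 and 3020.0 and then 3354, 3517 and 3254 (0.18 ± 0.18, adjusted p = 0.80), and Pdia3 949.7 and 1268 as group levels. The large SE of Pdia4 goes with wild-type LSK arrays at 26.8, 2.14 and 11.1.

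Among genes of ER-associated degradation, which send misfolded proteins to the proteasome, Edem1, a lectin for misfolded glycoproteins, read 80.1, 81.5 and 88.5 in wild-type and 111, 127 and 128.5 in deficient myeloid progenitors (0.55 ± 0.19, adjusted p = 0.234). Sel1l and Derl2 also had non-overlapping arrays on the higher side, while Herpud1, a target of both stress arms, was lower on all deficient arrays (213 and 153 as group levels, -0.48 ± 0.24, adjusted p = 0.456; 0.0209 without array 2). Syvn1 and Derl1 read 97.0 and 79.0, and 759.9 and 767. In the translocon, the channel into the ER, Sec61b read 2421, 2071 and 1707 and then 2474, 2348 and 2105, and Sec61a1 1117, 1015 and 1066 and then 1105, 1497 and 1264, with overlapping arrays (0.17 ± 0.22 and 0.26 ± 0.21). Wfs1, an ER membrane protein, was above the background limit on 1 of 3 wild-type myeloid progenitor arrays, so that no fold is given.

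The count in myeloid progenitors changed with the arrays fitted. Wild-type LSK array 2 is in neither group of this contrast and enters it through the shared spread and the common quantile normalization. Without that array 14 members were called, 8 higher (22.2%) and 6 lower (16.7%), against 5.05% and 3.39% of all genes. The 8 were Hyou1, Dnajc3, Sdf2l1, Manf, Pdia3, Ern1, Atf6 and Xbp1, and the 6 were Ppp1r15a, Ddit3, Dnajb9, Atf4, Asns and Herpud1. With limma fitted to the myeloid progenitor arrays alone 11 were called, 6 higher and 5 lower (30.6%, against 4.89% of all genes), and with array weights 15, 9 higher and 6 lower (41.7%, against 8.96%). Without wild-type myeloid progenitor array 7 the count was 1, Ppp1r15a (2.78%, against 0.925%). In the fit over all kept probe sets, 3 of the 82 member probe sets were called, those of Ddit3 and Ppp1r15a, against 1.34% of all probe sets.

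Genes that growth factors, stress or tissue dissociation induce within minutes moved in the same contrast. Of 17 immediate-early and dissociation genes, limma called 16 lower in deficient myeloid progenitors, against 1.09% of all genes. All 17 had every deficient array below every wild-type one. Their summed level lay between 18540 and 19320 on the wild-type arrays and between 1658 and 1735 on the deficient ones, and of these genes Atf3, which ATF4 also induces, was above the background limit on 0 of 3 deficient arrays (256 and 3.62). In LSK cells limma called 0 of the 17 (3 at an unadjusted p under 0.05), and the sums were 26870 to 26960 and 27440 to 28300. The part of this shift in the lower Ppp1r15a, Ddit3 and Dnajb9 was not tested. Summed markers of late neutrophils lay between 4447 and 4585 in wild-type and between 6268 and 6578 in deficient myeloid progenitors (7 genes, 1 called higher), and those of basophils, eosinophils and mast cells between 669.5 and 776 and between 1074 and 1087 (9 genes, 0 called by limma, 2 higher at an unadjusted p under 0.05). Those of plasma and B cells lay between 197 and 322 and between 236 and 267 (9 genes, 1 called in each direction), with Jchain at 3.34 and 41.8 and the plasma cell genes Mzb1 and Derl3 above background on 0 of 3 deficient arrays. The sums were 595 to 696 and 408.5 to 468 for monocytes and macrophages (5 genes), 1695 to 1764 and 2297 to 2625 for T and NK cells (5 genes), 7147 to 7606 and 6068 to 6407 for erythroid cells (3 genes) and 56.3 to 70.2 and 64.0 to 85.9 for stroma and endothelium (6 genes), with none of these genes called in myeloid progenitors. The T and NK sum came mostly from Nkg7, at 1703 and 2403 as group levels. In the same groups Cd3e read 3.90 and 2.48, Cd3g 3.51 and 5.83, Cd8a 5.06 and 4.20, and Klrd1 6.39 and 2.55, near or under the background limit. The part of all these cell types in the folding genes' values was not tested.

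In LSK cells limma called no member with FoxO deficiency, where it called 0.269% of all genes (37 of 13732). An unadjusted p under 0.05 was found for 7 of the 36, with the share of all genes at that threshold not counted. The members' values were evenly spread around 0, with 18 above and 18 below and a median of 0.01 beside -0.04 for all genes. All 3 deficient arrays were above the wild-type ones for 4 members (11.1%), Dnajb11, Dnajc3, Sdf2l1 and Ppp1r15b, and below them for 5 (13.9%), Hsp90b1, Ern1, Ppp1r15a, Asns and Sec61a1, against 7.77% and 9.06% of all genes. In the fit over all kept probe sets 0 of 82 member probe sets were called, against 0.152% overall. In the same cells the summed level of late neutrophil markers lay between 5975 and 8184 in wild-type and between 8515 and 8755 in deficient arrays, that of basophil, eosinophil and mast cell markers between 90.5 and 202 and between 323 and 379.7, and that of plasma and B cell markers between 1156 and 1471 and between 1945 and 2082. In the plasma and B cell sum the largest rise was that of Jchain, from 639 to 1200 as group levels. Mzb1 read 14.7 and 15.6, and Prdm1 9.10 and 9.24. Of the 9 plasma and B cell genes limma called 0 in LSK cells, with 8 values above 0 and 1 below. The part of all these marker lists in the LSK values was not tested.

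The largest values in LSK cells belonged to genes with 1 array apart. Pdia4 read 26.8, 2.14 and 11.1 in wild-type and 32.6, 17.2 and 31.2 in deficient LSK cells (1.60 ± 0.73, adjusted p = 0.444), and array 2 was below the background limit. Asns read 275, 1162 and 232 against 229.7, 188 and 214 (-1.0 ± 0.49, adjusted p = 0.479), and Hsp90b1 687, 1272 and 548 against 467, 373 and 348 (-0.99 ± 0.29, adjusted p = 0.259). In each case array 2 was the one farthest from the deficient arrays, and without it the changes were 0.60, -0.27 and -0.64. Sdf2l1 read 50.7, 19.8 and 59.8 and then 62.8, 89.4 and 76.5 (0.95 ± 0.36, adjusted p = 0.376), and Dnajb11 230.5, 173 and 302 and then 468, 356 and 422 (0.85 ± 0.21, adjusted p = 0.172). Here the deficient arrays were higher with and without array 2.

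Ern1, the gene of the sensor IRE1, was the member whose FoxO effect differed between cell types. Its LSK arrays read 916, 1040 and 771 in wild-type and 535, 492 and 569 in deficient cells, a log2 change of -0.76 ± 0.15 (adjusted p = 0.0987; -0.65 and 0.0416 without array 2, then the only member called). Its myeloid progenitor arrays read 391, 377 and 406 in wild-type and 583, 549 and 598 in deficient cells (0.56 ± 0.15, adjusted p = 0.115). The groups did not overlap in either cell type, and the order of genotypes was opposite. The difference between the effects was 1.32 ± 0.21 (adjusted p = 0.0220), the 1 call among 36 members where 0.859% of all genes were called. Without any 1 of arrays 1, 4, 5, 6, 7, 8, 9, 10, 11 or 12 the difference missed the threshold (adjusted p between 0.0518 and 0.0825), and likewise with 75th percentile scaling (0.0783) and with no filter (0.0648). It held without array 2 (1.205, adjusted p = 0.00494) or array 3 (adjusted p = 0.0172). The next brightest Ern1 probe set went the other way, at 329.7 and 422 in the wild-type and deficient LSK groups and at 187 and 112.5 in the myeloid progenitor groups, a difference of -1.09 (adjusted p = 0.442 over all probe sets); the remaining ones lay near background. In that fit 2 member probe sets were called for the difference, the brightest of Ern1 and the dimmer one of Ddit3, against 0.552% of all probe sets.

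At an unadjusted p under 0.05, 9 members differed, 5 upward and 4 downward, and the share of all genes at that threshold was not counted. At an adjusted p under 0.05, limma called 14 of the 17 immediate-early genes for the difference of the effects, against 0.859% of all genes. All 14 had a value below 0. Without array 2, 2 members were called for the difference where 3.13% of all genes were, Ern1 and, in the other direction, Dnajb9 (-0.81, adjusted p = 0.0195), and in LSK cells 1 was called where 0.903% of genes were.

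Between the cell types the members' calls in wild-type cells were near the share of all genes, and those in deficient cells were above it on the higher side. In wild-type cells 5 members were called higher in myeloid progenitors than in LSK cells (13.9%), Canx, Dnajb11, Sdf2l1, Pdia6 and Edem1, and 2 lower (5.56%), Ern1 and Trib3, against 9.95% and 11.5% of all genes. With scaling to the 75th percentile the split was 10 higher and 2 lower (33.3% of members, against 22.8% of all genes in either direction). In FoxO-deficient cells 12 were called higher (33.3%) and 4 lower (11.1%), against 10.2% and 9.39% of all genes. The 12 were Hsp90b1, Hyou1, Sdf2l1, Manf, Pdia6, P4hb, Atf6, Xbp1, Asns, Edem1, Sec61b and Sec61a1, and the 4 were Dnajb9, Atf4, Ddit3 and Ppp1r15a. These 2 comparisons use different arrays. Sdf2l1, Pdia6 and Edem1 were called higher in both, 4 members in wild-type cells alone and 13 in deficient cells alone; whether a member's cell type difference depends on genotype is the same test as the difference of FoxO effects above, which called Ern1. The members' median was 0.37 in wild-type and 0.58 in deficient cells, beside 0.015 and 0.11 for all genes.

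**Figure D3:**
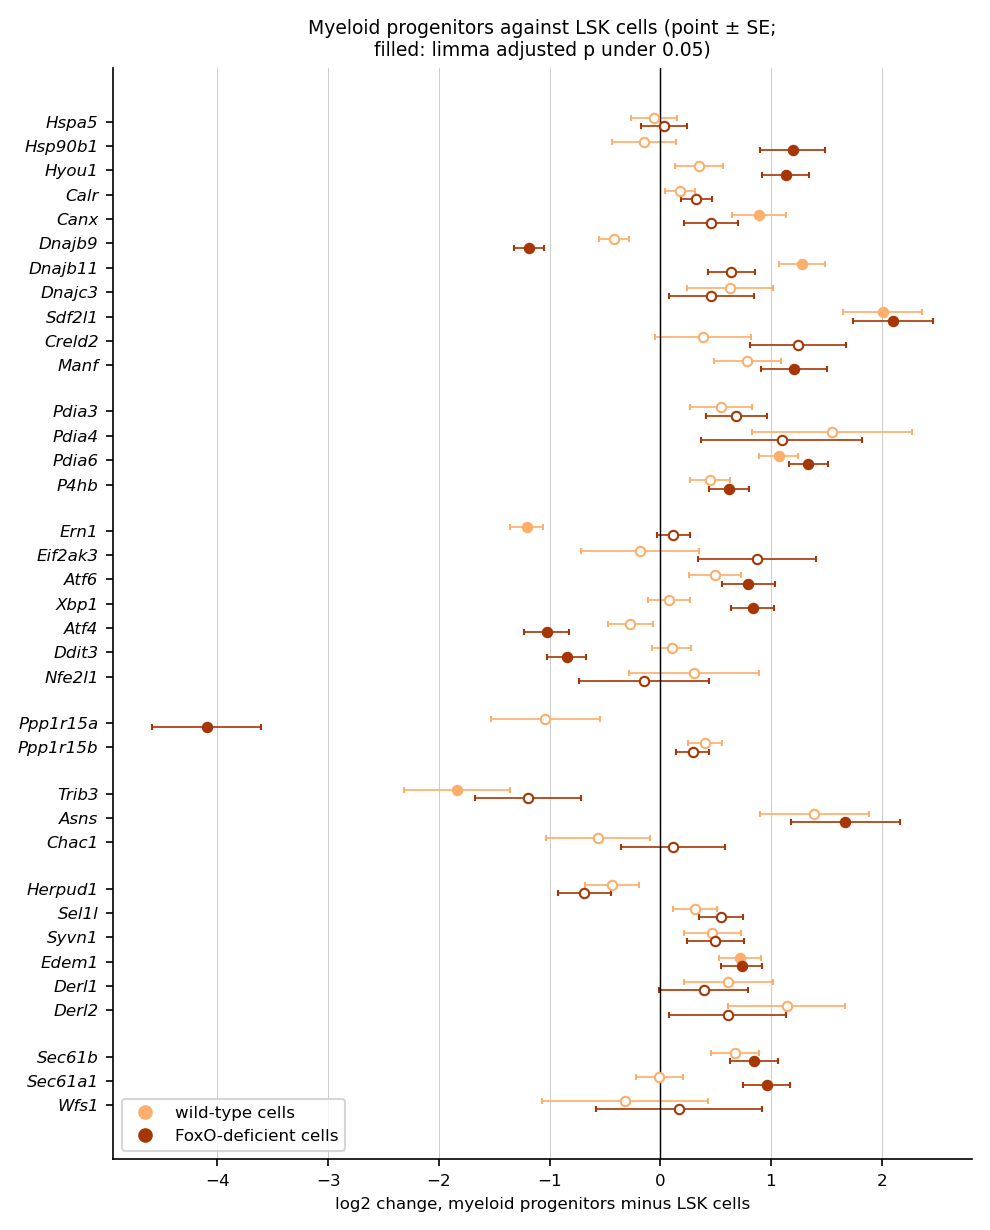
Log2 change of each member from LSK cells to myeloid progenitors, as point ± SE (limma, 3 arrays per group), in wild-type cells (light) and FoxO-deficient cells (dark); filled points were called at an adjusted p under 0.05. Sdf2l1 (2.01 and 2.10), Pdia6 (1.07 and 1.34) and Edem1 (0.72 and 0.74) are filled in both genotypes, and Ppp1r15a is farthest to the left in deficient cells (-4.10).

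Sdf2l1 had the largest rise with cell type among the members in the fit with all arrays; without array 2 Asns rose by more in wild-type cells (2.11 against 1.52). The LSK arrays read for Sdf2l1 50.7, 19.8 and 59.8 (wild-type) and 62.8, 89.4 and 76.5 (deficient), all below every myeloid progenitor array, which read 134 to 177 and 320.2 to 327. The log2 changes were 2.01 ± 0.36 in wild-type and 2.10 ± 0.36 in deficient cells (adjusted p = 0.00358 and 0.00282). Pdia6 read 67.2, 69.8 and 68.5 and then 91.7, 63.6 and 79.85 in LSK cells, below all myeloid progenitor arrays (1.07 ± 0.18 and 1.34 ± 0.18, adjusted p = 0.00240 and 6.42e-04). Edem1 read 65.0, 45.2 and 43.9 and then 72.0, 84.0 and 64.7, and rose by 0.72 ± 0.19 and 0.74 ± 0.19 (adjusted p = 0.0222 and 0.0211).

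Other folding genes were called in 1 genotype in the fit reported. Without array 2, Canx, Dnajb11 and Hyou1 were called higher in both (adjusted p = 0.0149, 0.00127 and 0.0131 in wild-type and 0.0258, 0.00845 and 2.39e-04 in deficient cells). A dimmer Canx probe set was called higher in both genotypes over all probe sets (0.73 and 0.58, adjusted p = 0.0145 and 0.0369). Other probe sets of Hsp90b1 and Hyou1 were also called higher in wild-type cells (0.88 and 1.62, adjusted p = 0.0156 and 0.00907 over all probe sets). For Hsp90b1 this went against the sign of its brightest probe set. Canx read 1699, 1089 and 2367 in wild-type LSK cells against 2979 to 3088 on the wild-type myeloid progenitor arrays (0.89 ± 0.25, adjusted p = 0.0280), and 2757, 2427 and 2311 in deficient LSK cells (0.46 ± 0.25, adjusted p = 0.235). Dnajb11 rose by 1.28 ± 0.21 in wild-type cells (adjusted p = 0.00222), with 0.64 ± 0.21 in deficient ones (adjusted p = 0.0592). In deficient cells Hsp90b1 rose by 1.20 ± 0.29 from LSK arrays at 467, 373 and 348, Hyou1 by 1.13 ± 0.22 from 112, 134 and 114, and Manf by 1.21 ± 0.30 from 626, 752 and 597.5 (adjusted p = 0.0173, 0.00508 and 0.0192). Their wild-type changes were -0.15, 0.35 and 0.79 (adjusted p = 0.772, 0.295 and 0.0945), with wild-type LSK arrays at 104, 197 and 139 for Hyou1 and 836, 332 and 691 for Manf. P4hb, which read 2622, 1659 and 2370.0 in wild-type and 2085, 2240 and 2264 in deficient LSK cells, rose by 0.62 ± 0.18 in deficient cells (adjusted p = 0.0351).

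In deficient cells 2 of the 3 translocon and ER membrane genes were called higher and none lower. Of the 7 sensors and transcription factors 2 were called higher and 2 lower. Over all genes 10.2% were called higher and 9.39% lower in this comparison. Sec61b, at 1593, 1233 and 1070.0 on the deficient LSK arrays, rose by 0.85 ± 0.22, and Sec61a1, at 639, 733 and 604, by 0.96 ± 0.21 (adjusted p = 0.0225 and 0.0104). In wild-type LSK cells they read 1257, 1058 and 1585, and 1080.0, 1394 and 814, with changes of 0.67 ± 0.22 and -0.01 ± 0.21 (adjusted p = 0.0538 and 0.987). Atf6 rose in deficient cells from 132, 135 and 156 (0.80 ± 0.24, adjusted p = 0.0398) and Xbp1 from 121, 109 and 128 (0.84 ± 0.19, adjusted p = 0.0134). Their wild-type LSK arrays read 127, 81.9 and 169.6, and 99.0, 161 and 122, and neither was called in wild-type cells (adjusted p = 0.174 and 0.816).

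Of the members called lower in deficient myeloid progenitors than in deficient LSK cells, Ppp1r15a, Atf4 and Ddit3 belong to the stress arm and Dnajb9 to the chaperones. In deficient cells Ppp1r15a was lower in myeloid progenitors by -4.10 ± 0.49, Dnajb9 by -1.19 ± 0.14, Atf4 by -1.03 ± 0.20 and Ddit3 by -0.84 ± 0.18 (adjusted p = 3.36e-04, 2.57e-04, 0.00572 and 0.00793). In wild-type cells the values were -1.04, -0.42, -0.27 and 0.10, none called (adjusted p = 0.169, 0.0533, 0.387 and 0.727). Ddit3 read 86.0, 79.4 and 82.6 in wild-type and 65.1, 84.5 and 65.8 in deficient LSK cells. Trib3 fell in wild-type cells from 32.5, 79.2 and 17.3 to 12.8, 9.81 and 7.77 (-1.84 ± 0.48, adjusted p = 0.0231) and read 21.8, 23.3 and 29.95 and then 8.24, 10.2 and 15.0 in deficient cells (-1.20 ± 0.48, adjusted p = 0.116). Asns rose in deficient cells by 1.67 ± 0.49 (adjusted p = 0.0390), and in wild-type cells its change of 1.39 ± 0.49 did not pass (adjusted p = 0.0726; 2.11 and 1.60e-05 without array 2). The other Asns probe set was called higher in wild-type and deficient cells over all probe sets (1.505 and 1.742, adjusted p = 0.00942 and 0.00424). Ern1 fell in wild-type cells by -1.21 ± 0.15 (adjusted p = 4.67e-04), with 0.12 ± 0.15 in deficient cells (adjusted p = 0.648). Its next brightest probe set was called lower in deficient cells over all probe sets (-1.91, adjusted p = 0.00308), with -0.82 in wild-type cells (adjusted p = 0.113).

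**Figure D4:**
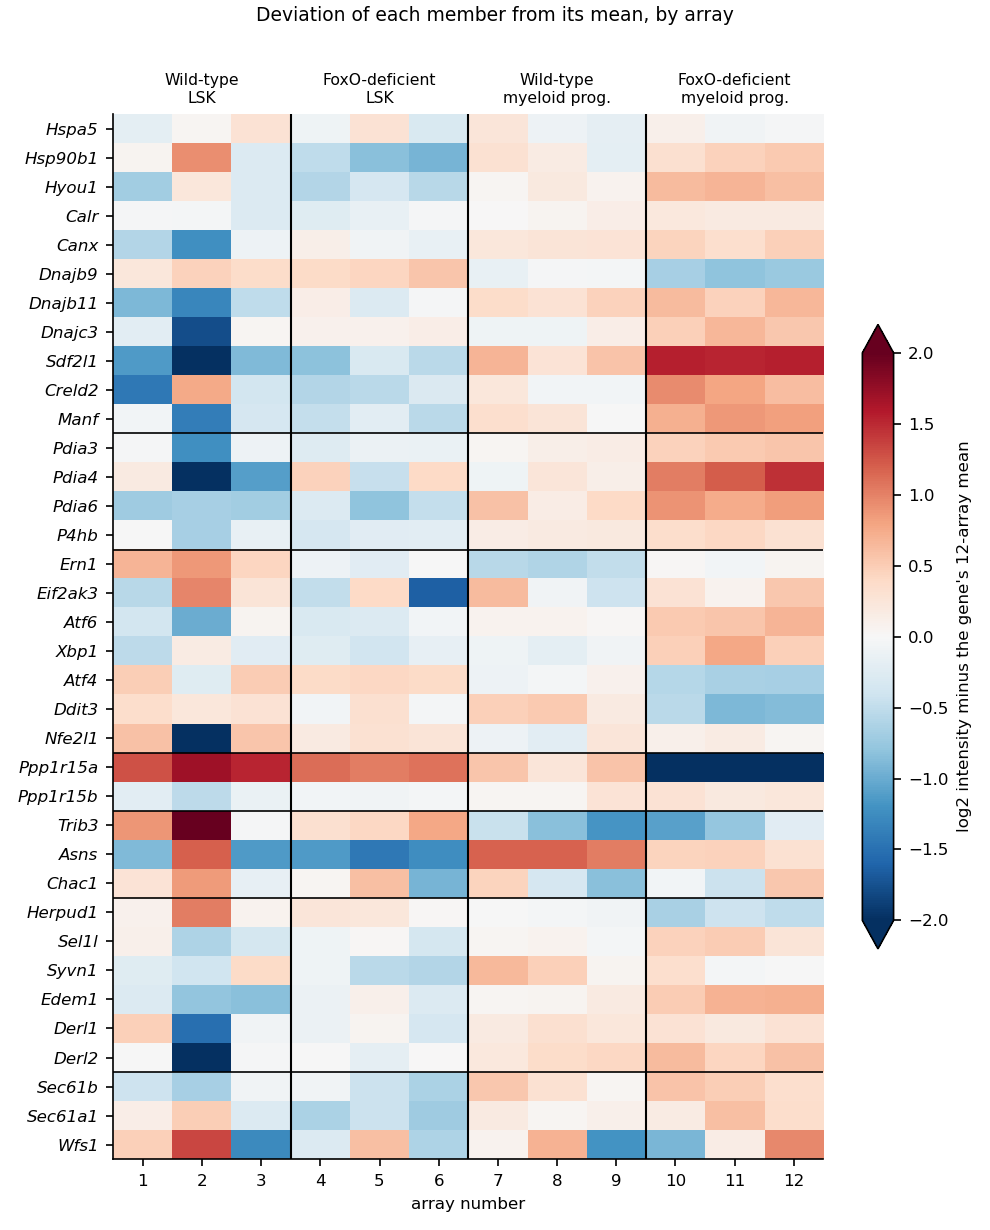
Log2 intensity of each of the 36 members on each of the 12 arrays, minus that member's mean over the 12 arrays, on a colour scale from -2 to 2, with members grouped by role and arrays by group. The deficient myeloid progenitor arrays (10 to 12) are red for most folding genes and blue for Dnajb9, Atf4, Ddit3, Ppp1r15a and Herpud1, and wild-type LSK array 2 differs in colour from arrays 1 and 3 for many members.

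Without array 2 more members separated the cell types. In wild-type cells these were 14, 9 higher (25%) and 5 lower (13.9%), against 17.8% and 16.1% of all genes. In deficient cells these were 28, 22 higher (61.1%) and 6 lower (16.7%), against 21.5% and 15.7%. In the fit over all kept probe sets, 17 of the 82 member probe sets were called in wild-type cells, against 16.8% of all probe sets. In deficient cells 25 of the 82 were called, against 15.7%. Without array 8 or 9 the wild-type count was 4 (11.1%), against 15% and 14.5% of all genes. Without array 5, 6, 11 or 12 the deficient count was 10, 9, 8 and 10 (22.2% to 27.8%), against 14%, 13.9%, 13.7% and 13.6% of all genes. With all arrays, 9.95% of all genes were called higher and 11.5% lower in wild-type cells, and 10.2% and 9.39% in deficient cells. Beside these shares, immediate-early genes moved with cell type, 4 of 17 called lower in wild-type and 16 of 17 in deficient cells. Markers of other cells moved too. Those of basophils, eosinophils and mast cells were called higher for 9 of 9 and 4 of 9. Late neutrophil markers were called lower for 6 of 7 and 5 of 7. Plasma and B cell markers were called lower for 3 of 9 and 5 of 9. The part of these shifts in the members' values was not tested.

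The remaining members were not called in the fit reported, though some were under other settings (Sel1l and Pdia3, for example, with 75th percentile scaling between cell types). By their group levels (wild-type LSK, deficient LSK, wild-type myeloid progenitors, deficient myeloid progenitors), the lectin chaperone Calr read 2335, 2296, 2647 and 2880. The eIF2 kinase inhibitor Dnajc3 read 448, 751, 694 and 1034, and the ER stress gene Creld2 88.9, 82.0, 116.5 and 195. For Pdia3 the levels were 649, 787, 949.7 and 1268. In these 4 genes the deficient myeloid progenitors had the highest level. Eif2ak3 read 69.6, 40.03, 61.4 and 73.2 with a wide spread (19.2 to 117 over all arrays). The degradation genes read 288, 245.5, 213 and 153 for Herpud1, 609, 677, 757 and 989.9 for Sel1l, 70.0, 56.0, 97.0 and 79.0 for Syvn1, 496, 584, 759.9 and 767 for Derl1, and 836, 1412, 1846 and 2153 for Derl2. Wfs1 lay near background throughout, at 12.2, 10.0, 9.74 and 11.3.

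Beyond the members, 135 other genes of the same pathways were listed, of which 129 were tested. With FoxO deficiency 0 of these were called in LSK cells; the lowest p belonged to Srprb, a subunit of the receptor for signal recognition particle (60.9 and 33.6, adjusted p = 0.0913), and to the amino acid transporter gene Slc1a4 (342 and 175, adjusted p = 0.0970). In myeloid progenitors 1 was called, Vldlr, a lipoprotein receptor gene that ATF4 can induce, from 48.5 to 118 (1.29 ± 0.23, adjusted p = 0.0216). For the difference of the effects 0 were called, and the lowest p belonged to Slc1a4 (1.24 ± 0.27, adjusted p = 0.0807) and Fkbp11, a prolyl isomerase gene of secretory cells (1.74 ± 0.43, adjusted p = 0.127). At an unadjusted p under 0.05 the counts were 14, 16 and 12, without a share of all genes beside them. Their medians were -0.002, 0.11 and 0.11 in these 3 comparisons. Without array 2 the calls were 1 in LSK cells, 10 in myeloid progenitors (7 higher, 5.43%, and 3 lower, 2.33%) and 4 for the difference, all near the shares of all genes given above for that fit. Among the 10 was Slc3a2, a chain of amino acid transporters and an ATF4 target, which was lower (-1.01 ± 0.09, adjusted p = 4.27e-04).

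With cell type, 25 of the 129 were called higher (19.4%) and 4 lower (3.1%) in wild-type cells, beside 9.95% and 11.5% of all genes, and 33 (25.6%) and 5 (3.88%) in deficient cells, beside 10.2% and 9.39%. The medians were 0.31 and 0.44. The counts by list that follow stand against the same shares of all genes. Of the genes of protein translocation and glycosylation, 5 of 19 rose in wild-type and 7 of 19 in deficient cells and 0 fell. Among these were the signal peptidase gene Spcs3 (1.09 ± 0.16 in both) and the oligosaccharyl transferase genes Rpn2 (0.80 ± 0.15 and 1.09 ± 0.15) and Ostc (1.02 ± 0.29 and 1.26 ± 0.29). Of 22 folding and oxidation genes 4 rose and 1 fell in wild-type cells, and 9 rose and 2 fell in deficient cells, with Fkbp11 the largest rise (2.41 ± 0.30, adjusted p = 4.56e-04) and Mzb1, a plasma cell and B cell chaperone gene, the largest fall (-2.27 ± 0.66, adjusted p = 0.0377). Of 11 aminoacyl-tRNA synthetase genes the same number, 3, rose in each genotype: Gars1, Lars1 and Mars1. Of 21 ATF4-linked genes 2 rose and 2 fell in wild-type and 4 rose and 3 fell in deficient cells, with Vldlr (-4.93 ± 0.23 and -3.92 ± 0.23) and the transcription factor gene Cebpb (-2.51 ± 0.30 and -1.91 ± 0.30) lower in both. The counts for the eIF2 kinases, eIF2 and eIF2B were 3 higher and 1 lower of 12 in wild-type and 4 higher and 0 lower in deficient cells, with Eif2b1 and Eif2b3 among the higher in both. For ER-associated degradation 3 of 21 were higher in each genotype, for ER export 3 of 10 in each, and for signalling partners 2 of 13 in wild-type and, by limma, 0 in deficient cells, with none called lower in these 3 lists.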

How the data were processed

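Per the labels' protocols, RNA of sorted cells was amplified and biotin-labelled with the NuGEN Ovation system and hybridised to Affymetrix Mouse Genome arrays. The deposited values are linear intensities, 1 per probe set and array, made with software not given in the sources used here. At most 1.55% of values were identical between any pair of arrays. From the deposited intensities, log2(intensity + 0.6) was computed here (0.6 is the 10th percentile over all arrays), followed by quantile normalization. The size of a change that rests on values near the background limit therefore depends on the offset. Values under the background limit have no firm order.

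Of 45101 probe sets, 64 were controls and left out, 34945 carried 1 gene symbol in the platform annotation, 932 several and 9160 none, and genes were named only from the first kind. A probe set was kept if above the 40th percentile on at least 3 arrays, and each of 13732 genes was read from its brightest kept probe set; a separate fit held all 25705 kept probe sets. Limma 3.58.1 in R 4.3.3 was fitted with 1 mean per group and 8 residual degrees of freedom for 5 contrasts, and the script was tested on simulated data. A fold is given only where the dimmer group was above background on at least 2 of 3 arrays.

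The members and all lists were chosen with earlier results of these data known. Members called in any contrast, or among the 3 largest changes in one, are given array by array, and the rest by group. Alternatives were an offset of 16, 75th percentile scaling, no filter or a 60th percentile filter, array weights, fitting only the groups compared, every kept probe set, and leaving out each array. Promoters are RefSeq sequence of GRCm38.p6.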

Additional observations from a re-analysis of the deposited data

Results flagged for a closer look

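Ern1, which encodes the sensor IRE1, was the 1 member whose FoxO effect differed between the cell types by the test of the difference itself (limma, log2 difference of 1.32 ± 0.21, adjusted p = 0.0220). Its brightest probe set was lower in all 3 deficient LSK arrays and higher in all 3 deficient myeloid progenitor arrays than in the wild-type arrays, while the next brightest probe set of the gene differed the other way without passing the test (-1.09, adjusted p = 0.442 over all probe sets). Leaving out each array in turn, the difference missed the threshold in 10 of 12 fits (adjusted p between 0.0518 and 0.0825) and held without array 2 or array 3. No outlier test was run within a group, since each has 3 arrays.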

How the results depend on the processing

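The number of members called moved with the array that stands apart and with the size of the fit. In LSK cells 0 members were called in the fit reported and 1, Ern1, with an offset of 16, with a 60th percentile filter, with array weights and without array 2, so that leaving out each array gave 0 to 1. In myeloid progenitors 3 members were called in the fit reported, 15 with array weights, 11 with only the groups compared, and 1 to 14 without each array in turn, the lowest without array 7 and the highest without array 2. For the difference of the effects 1 was called in the fit reported, 2 with an offset of 16, with array weights or with every kept probe set, 0 with 75th percentile scaling or no filter, and 0 to 2 without each array in turn; without array 11 the 1 call was Ppp1r15a in place of Ern1. Between the wild-type cell types 7 were called in the fit reported, 11 with an offset of 16, a 60th percentile filter or array weights, 12 with 75th percentile scaling or every kept probe set, 3 with only the groups compared, and 4 to 14 without each array in turn. Between the deficient cell types 16 were called in the fit reported, 28 with array weights, 27 with only the groups compared and 8 to 28 without each array in turn. Shares of all genes moved with these counts: between the deficient cell types 39.6% of all genes were called with array weights and 34.5% with only the groups compared, and in myeloid progenitors 8.96% and 4.89%. Between the wild-type cell types 25.2% of all genes were called with an offset of 16 and 33.5% with a 60th percentile filter. There array weights gave 32% and only the groups compared 8.08%. No member's change that was called in the fit reported, or was among the 3 largest of its comparison, turned its direction in these alternatives. Other changes given above did, such as that of Atf4 in LSK cells without array 2 (0.14 to -0.10). The members' median change in LSK cells, 0.006 in the fit reported, ran from -0.081 with 75th percentile scaling to 0.101 with every kept probe set. Over all members without array 2, values changed sign for 15 members in LSK cells, 8 for the difference and 5 between the wild-type cell types, none called with all arrays and 1 called without array 2 (Nfe2l1, from 0.31 to -0.58, adjusted p = 0.0109). No sign changed in the other comparisons. Fitting only the groups compared was not possible for the difference of the effects, which needs all 4 groups. No paired analysis was possible because the labels share no replicate number between groups. Signal over background limits Ppp1r15a, Pdia4, Trib3, Chac1 and Wfs1, which lay near or under the background limit on some arrays.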
